A study of Homo sapiens with 9 samples.

Results

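Exposure to either of 2 extracts at the lowest dose was examined in SW1783, a human astrocytoma line. The members were the 2 libraries of cells given 20 µg/mL of a 70% ethanol extract of Poria Cocos or of Atractylodis Rhizoma, taken as 1 group and set against the 3 vehicle libraries. These are 5 of the 9 libraries of the series, chosen by extract and dose, and the other 4 hold the same extracts at 100 and 500 µg/mL. The medium was Leibovitz's L-15 with 10% serum, and every library was taken after 24 h. The vehicle was DMSO, at 0.1% in the sample labels and at 2% in the design text of the series, and the labels state no DMSO percentage for the extract-treated cells. Poria Cocos is a fungus and Atractylodis Rhizoma the rhizome of a plant, and the series is one of tonifying herbs.

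Each extract and dose has 1 library, so the low-dose group mixes 2 extracts and its spread holds the difference between them. Nothing in the labels ties a library to a culture of its own, so a p-value here covers the spread of these samples alone, and that spread may be technical. Every extract-treated library carries replicate number 2, and its sample name follows a pattern other than that of the vehicle libraries. Any handling that the treated libraries share cannot be told apart from the extracts. In bulk RNA, fewer cells of a type and less RNA per cell cannot be told apart. Library totals ran from 40269708 to 48905602 counts over all 9 libraries. Levels are given as CPM (counts scaled to library size, with TMM factors) and changes as log2 ± SE, with p-values of the edgeR quasi-likelihood test adjusted over all tested genes. A gene is said to have risen or fallen where its adjusted p was at most 0.05.

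Cells attached to a surface read its stiffness and their own tension through the actin cytoskeleton. Polymerised actin releases MRTF to serum response factor, and tension lets YAP enter the nucleus and act with TEAD proteins on genes such as CCN2. TGF-beta signalling adds to the output of many of these genes, and NF-kB and MAPK signalling drive cytokine, prostaglandin and early response genes in glial tumour cells.

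Of the 12 astrocyte markers, 6 stayed below 1 CPM in all 9 libraries, among them GFAP, which reached at most 0.159 CPM. SOX9 (58.6 to 84.9 CPM), GJA1, SLC1A3, NES, VIM and CD44 were present. None of the 13 mesenchymal markers was below 1 CPM in all libraries. The summed astrocyte markers ranged from 8870 to 9260 CPM in vehicle, and stood at 8350 CPM with Poria and 8120 CPM with Atractylodis. Most of this sum came from VIM (mean of 5990 CPM in vehicle) and CD44. Among the markers GJA1, SOX9 and VIM fell and SLC1A3 rose. The summed mesenchymal markers ranged from 2010 to 2020 CPM in vehicle and were 1890 CPM in each low-dose library, and the part of these shifts in the results was not tested.

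The low-dose libraries lay apart from vehicle and from each other. The chi-square per degree of freedom between the counts of library pairs was 2.36 to 3.24 among the vehicle libraries, 14.31 to 14.94 between Poria at 20 µg/mL and vehicle, and 12.78 to 15.55 between Atractylodis at 20 µg/mL and vehicle. Between the low-dose libraries it was 10.29. Poria at 20 µg/mL was closer to Atractylodis at 100 µg/mL (3.27) than to either Atractylodis at 20 µg/mL or Poria at 100 µg/mL (8.97). The deviation of a library from vehicle had a Spearman rho with the GC content of the genes of -0.453 for Poria and -0.159 for Atractylodis (11537 genes, which share library and depth), against -0.085 to 0.135 in the vehicle libraries.

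Between both extracts together and vehicle, 3286 of 17203 tested genes were called, 19.1%. Of these, 1497 rose (8.70%) and 1789 fell (10.4%). Most shifts were small, with a median size of 0.22 log2 among the called genes, and 672 genes rose (3.91%) and 526 fell (3.06%) by at least 1.2-fold. Genes that rose had a median GC content of 43.3%, genes that fell 54.5%, and all tested genes 48.2%. When GC content and gene length were corrected for, 1443 rose and 2024 fell, and 2654 of these were among the 3286. The count was 1981 without vehicle replicate 1 and 2109 without vehicle replicate 3, while it was 3314 without the Poria library and 3736 without the Atractylodis library. Taken singly, Poria at 20 µg/mL had 3759 calls against vehicle (21.9%) and Atractylodis 3308 (19.2%), in comparisons that share the vehicle libraries.

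Genes were ranked among those with a name other than an Ensembl ID that average 2 or more in log2 CPM. The largest rise was that of NEAT1 (ENSG00000245532, GRCh38 chromosome 11, 65422774 to 65445540, plus strand), the scaffold of nuclear paraspeckles. Without the name condition the largest rise was 1.32 log2. NEAT1 stood at 288, 299 and 301 CPM in vehicle, at 555 CPM with Poria and at 572 CPM with Atractylodis. Both treated libraries lay far above the vehicle range and close to each other. For 4002 of 17203 tested genes both lay above that range to any extent. The change was 0.93 ± 0.04 (1.91-fold, adjusted p = 7.8e-12). Of the 9 listed long nuclear RNAs, 4 rose and 0 fell, with a list median of 0.26 against 0.01 over all tested genes. MEG3, an imprinted long RNA, had 571, 554 and 586 CPM in vehicle, 749 CPM with Poria and 772 CPM with Atractylodis (0.42 ± 0.04, adjusted p = 1e-06). MALAT1, a nuclear speckle RNA, rose by 0.33 and OIP5-AS1 by 0.26. All 4 passed the test in each of the 11 alternatives run.

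Other large rises concerned genes with less clear counting. MARK2, a kinase that phosphorylates microtubule-associated proteins, stood at 19.4, 15.0 and 17.6 CPM in vehicle, 34.3 CPM with Poria and 31.3 CPM with Atractylodis (0.92 ± 0.09, adjusted p = 0.00023). CFAP44, a cilium gene, rose by 0.91 and ZSCAN31, a zinc finger gene, by 0.79, while FAM13C rose by 0.70 and TNFRSF25, a death receptor, by 0.69. HERC2P2 (0.78), HERC2P3, STAG3L5P and NSUN5P1 (0.67) are pseudogenes, and PEDS1-UBE2V1 and JMJD7-PLA2G4B are read-through genes, so their reads could be split with the parent genes and their levels are uncertain.

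Most listed targets of TGF-beta and YAP fell. Of 16 tested members 11 fell and 0 rose, with a median of -0.29. CCN1, also on the list, neither fell nor rose by the test. CCN2 (ENSG00000118523, chromosome 6, 131948176 to 131951373, minus strand), a matricellular growth factor and a standard YAP target, had the largest fall of the list. It stood at 199, 208 and 195 CPM in vehicle, 121 CPM with Poria and 105 CPM with Atractylodis. Both low-dose libraries lay below all vehicle libraries, as they did for 3986 of 17203 tested genes. The change was -0.83 ± 0.06 (adjusted p = 3.7e-06). ANKRD1, another YAP target, had 13.6, 12.8 and 14.9 CPM in vehicle, 10.0 CPM with Poria and 9.49 CPM with Atractylodis (-0.50 ± 0.08, adjusted p = 0.00014). ACTA2, smooth muscle actin, fell by 0.45 and TAGLN, an actin-binding protein of contractile cells, by 0.40.

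The TEAD motif GGAATG was looked for on both strands in the 250 bases before the start of each gene, in windows from RefSeq on GRCh38.p14. It was added after the values were seen. It occurred in 7 of the 11 members with a window, and in 11.9% of 35116 windows. The CCN2 and ANKRD1 stretches are shown because these genes fell most clearly among the YAP targets, with the motif in capitals. That of CCN2 is chr6:131951442-131951561 and that of ANKRD1 chr10:90921190-90921327, both on the minus strand and written 5′ to 3′ along the gene.
CCN2: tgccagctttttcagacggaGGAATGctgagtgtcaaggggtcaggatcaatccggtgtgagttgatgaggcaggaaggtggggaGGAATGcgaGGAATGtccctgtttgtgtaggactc
ANKRD1: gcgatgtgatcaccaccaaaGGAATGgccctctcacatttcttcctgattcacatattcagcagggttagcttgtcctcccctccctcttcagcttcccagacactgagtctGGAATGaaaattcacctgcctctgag
CCN2 holds 3 copies, starting 169, 104 and 95 bases before the gene start, and ANKRD1 holds 2, at 220 and 128 bases. A match describes these letters and not binding.

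Genes of the actin cytoskeleton fell in most members. Of 20 tested members 16 fell and 1 rose (TMSB4X, with adjusted p = 0.068 without vehicle replicate 1 and 0.095 without vehicle replicate 3), with a median of -0.18. ACTN1, the actin cross-linker alpha-actinin, stood at 1140, 1100 and 1120 CPM in vehicle, 902 CPM with Poria and 877 CPM with Atractylodis (-0.33 ± 0.04, adjusted p = 1.7e-05). ZYX, a focal adhesion protein, fell by 0.30, ACTB, the main cytoplasmic actin, by 0.31, and ACTN4 by 0.27. ACTB and the other actins have near-identical coding sequences, so the split of reads between them is uncertain. After the GC correction 15 members fell and 2 rose, and 11 fell without vehicle replicate 1.

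The CArG box, the site of serum response factor, was also added after the values were seen. It occurred in 4 of the 19 actin genes with a window and in 1.16% of all windows. Stretches are shown for ACTG1 and FLNA, which fell, and for EGR1, which rose, with the box in capitals. ACTG1 is chr17:81512864-81512913 and FLNA chrX:154374699-154374748, both on the minus strand, and EGR1 is chr5:138465354-138465425 on the plus strand.
ACTG1: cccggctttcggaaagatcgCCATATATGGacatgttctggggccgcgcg
FLNA: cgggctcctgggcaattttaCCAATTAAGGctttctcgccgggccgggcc
EGR1: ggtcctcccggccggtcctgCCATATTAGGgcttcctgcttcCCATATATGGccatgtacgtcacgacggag
ACTG1 fell by 0.26 (adjusted p = 0.00043) and FLNA, an actin cross-linker, by 0.18 (adjusted p = 0.0081, and 0.065 without vehicle replicate 1 and 0.082 without vehicle replicate 3). EGR1, an early growth response factor, stood at 19.6, 21.3 and 18.3 CPM in vehicle, 25.4 CPM with Poria and 26.7 CPM with Atractylodis, and rose by 0.40 ± 0.06 (adjusted p = 0.00015). All 4 actin genes with the box fell. EGR1 was taken from the immediate early list, where the box was not counted. What part the box had in these shifts was not tested.

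In the list of NF-kB and cytokine genes 8 of 19 members fell and 0 rose, with a median of -0.27. LIF (ENSG00000128342, chromosome 22, 30240447 to 30246851, minus strand), a cytokine of the interleukin-6 family, had 57.7, 57.7 and 53.6 CPM in vehicle. It had 31.1 CPM with Poria and 33.2 CPM with Atractylodis (-0.81 ± 0.05, adjusted p = 8.1e-09). PTGS2 (ENSG00000073756, chromosome 1, 186671791 to 186680427, minus strand), the inducible cyclooxygenase, stood at 88.7, 88.8 and 85.2 CPM in vehicle, 53.7 CPM with Poria and 51.8 CPM with Atractylodis. Its change was -0.73 ± 0.04 (adjusted p = 2.6e-09), and the low-dose libraries were alike. CCL2, a monocyte chemokine, fell by 0.64, and RELB, an NF-kB subunit, by 0.48. The count was 8 to 10 in the alternatives run.

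ANGPTL4, a secreted inhibitor of lipoprotein lipase and a member of the fatty acid oxidation and PPAR list (3 fell and 1 rose of 13), had 23.1, 23.2 and 23.4 CPM in vehicle, 14.1 CPM with Poria and 13.4 CPM with Atractylodis (-0.76 ± 0.06, adjusted p = 8.3e-08). MAFF, a small MAF factor, fell by 0.71 and ZSWIM4 by 0.64. KRTAP2-3, a hair keratin-associated protein, had the largest fall at that level of expression, from 6.44, 5.96 and 5.81 CPM to 3.31 and 2.60 CPM (-1.04 ± 0.12, adjusted p = 7.2e-06), but it has close paralogs and its level is uncertain. The pseudogenes FKBP9P1, RPS2P46, RPL14P1 and MORF4L1P1 also fell, with the same uncertainty.

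**Figure D1:**
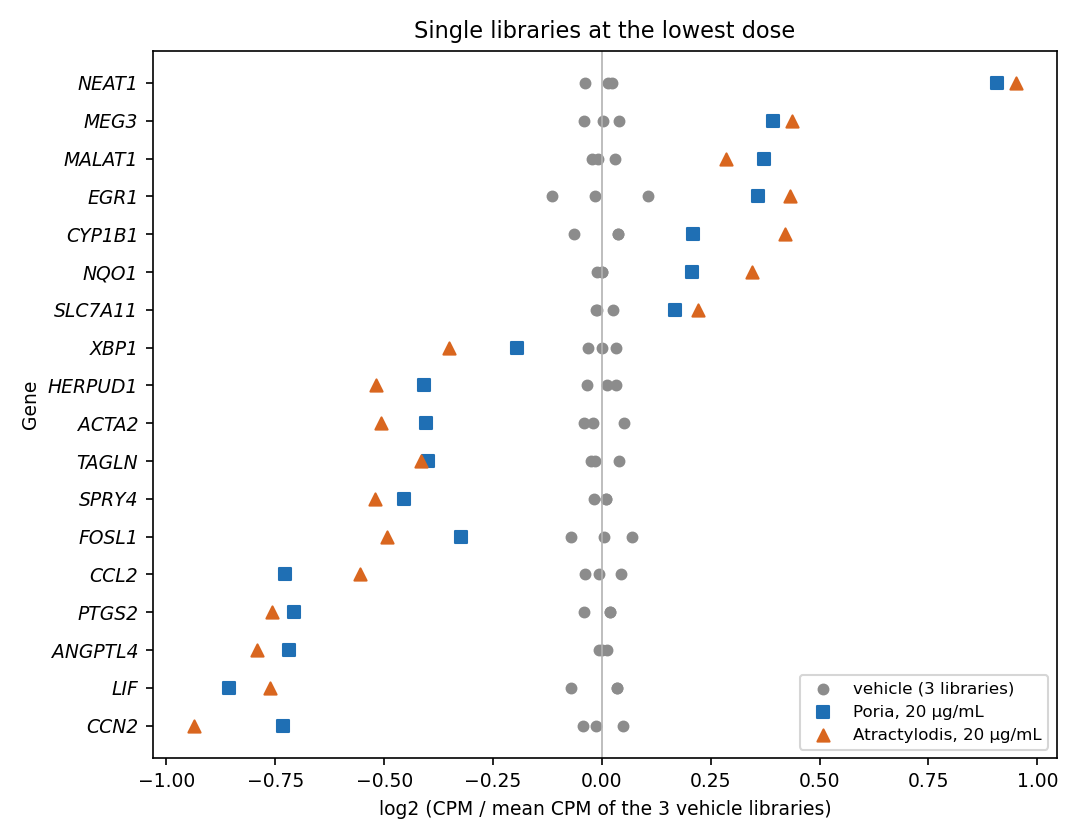
Each row is a gene and each point a library, as the log2 ratio of its CPM to the mean of the 3 vehicle libraries (grey circles). The Poria (square) and Atractylodis (triangle) libraries at 20 µg/mL lie on the same side of vehicle for every gene drawn, from NEAT1 (0.93) to CCN2 (-0.83). All genes drawn were called for both extracts taken as 1 group, so the shared side follows largely from their choice.

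Growth factor outputs fell in part. Of 12 MAPK feedback genes 7 fell and 1 rose, with a median of -0.20. SPRY4, a feedback inhibitor of receptor kinases, stood at 33.9, 33.3 and 33.9 CPM in vehicle, 24.6 CPM with Poria and 23.5 CPM with Atractylodis (-0.48 ± 0.05, adjusted p = 2.3e-06). DUSP5, an ERK phosphatase, fell by 0.46, and ETV1 was the member that rose (0.22). Of 22 immediate early genes 10 fell and 2 rose (EGR1 and DUSP1), or 6 fell without vehicle replicate 1. FOSL1, an AP-1 subunit, fell by 0.41, with adjusted p = 0.13 after the GC correction. PLAUR, the urokinase receptor, fell by 0.37 and PLAU, urokinase, by 0.35, among 6 of 14 metalloproteinase and plasminogen activator genes that fell. That count was 2 without vehicle replicate 1 and 3 without vehicle replicate 3.

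Cell cycle genes were described by 3 lists. Of 24 mitosis genes 12 fell and 0 rose, with a median of -0.11, and 6 fell without vehicle replicate 1. PLK1, a mitotic kinase, had 183, 166 and 171 CPM in vehicle, 139 CPM with Poria and 144 CPM with Atractylodis (-0.29 ± 0.04, adjusted p = 0.0001), and CCNB1, the mitotic cyclin, fell by 0.24. Of 10 tested cyclins and G1 control genes 2 fell and 1 rose (CDKN1B, a CDK inhibitor, by 0.21), with a median of 0.04. CDKN1B had an adjusted p of 0.034, which was 0.079, 0.11 and 0.12 without vehicle replicate 1, 2 and 3, and 0.46 (0.07 log2) without the Atractylodis library. CCND1, the G1 cyclin, stood at 207, 211 and 210 CPM in vehicle, 167 CPM with Poria and 170 CPM with Atractylodis (-0.31 ± 0.04, adjusted p = 1.2e-05), and its kinase CDK6 fell by 0.30. DNA replication genes rose in 5 of 26 and fell in 0, with a median of 0.04. PCNA, the polymerase clamp, rose by 0.15 (adjusted p = 0.076 without vehicle replicate 3), but only 1 of the 5 rises was left without vehicle replicate 1, and 1 without vehicle replicate 3. Ribosome biogenesis genes fell in 12 of 24 and rose in 0, with FBL, a nucleolar RNA methyltransferase, lower by 0.32 and PES1 by 0.30.

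Endoplasmic reticulum genes fell in 7 of 20 members and rose in 0, with a median of -0.08, and 4 fell without vehicle replicate 1 or without vehicle replicate 3. HERPUD1, which takes part in the disposal of misfolded proteins, had 125, 129 and 131 CPM in vehicle, 96.5 CPM with Poria and 89.3 CPM with Atractylodis (-0.46 ± 0.04, adjusted p = 6.9e-07). DNAJB9, a co-chaperone, fell by 0.33, and XBP1, a transcription factor of the unfolded protein response, by 0.26. HSPA5, the main chaperone of this compartment, was not called. It had 3370, 3500 and 3590 CPM in vehicle, 3610 CPM with Poria and 3570 CPM with Atractylodis (0.04 ± 0.04, adjusted p = 0.54), with Poria just above the vehicle range and Atractylodis within it. CALR, calreticulin, fell by 0.17 (adjusted p = 0.009, and 0.059 without vehicle replicate 1 or without vehicle replicate 3).

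The ER stress element, a CCAAT and a CCACG with a fixed spacer between them, occurred in 7 of the 19 endoplasmic reticulum genes with a window and in 0.074% of all windows, both strands searched. Stretches are shown for XBP1 and CALR, which fell, and for HSPA5, which was not called. XBP1 is chr22:28800583-28800641 and HSPA5 chr9:125241371-125241429, both on the minus strand, and CALR is chr19:12938364-12938422 on the plus strand, where the element lies on the opposite strand. Capitals mark the element.
XBP1: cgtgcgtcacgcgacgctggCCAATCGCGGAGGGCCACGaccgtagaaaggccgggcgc
CALR: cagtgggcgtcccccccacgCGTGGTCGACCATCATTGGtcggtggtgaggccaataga
HSPA5: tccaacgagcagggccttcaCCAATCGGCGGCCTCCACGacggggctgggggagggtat
Genes that share the element thus differed in whether they passed the test.

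Stress, sterol and xenobiotic genes were less uniform. PPP1R15A, the phosphatase subunit that ends the integrated stress response, fell by 0.40 and DDIT3, a stress transcription factor, by 0.24, among 5 of 21 that fell, with DDIT4 the member that rose. Without the Poria library 1 of the 21 fell, and DDIT3 had adjusted p = 0.059. INSIG1, a sterol sensor, had 174, 174 and 172 CPM in vehicle, 142 CPM with Poria and 152 CPM with Atractylodis (-0.24 ± 0.04, adjusted p = 0.00026). The cholesterol list had 3 of 24 members down and 0 up, so 12.5% were called, fewer than the 19.1% of all tested genes. Its median was -0.02, or -0.09 for Poria alone and -0.01 for Atractylodis alone. Of 29 NRF2 genes 8 rose and 2 fell, with a median of 0.00. NQO1, a quinone reductase, stood at 129, 130 and 130 CPM in vehicle, 150 CPM with Poria and 165 CPM with Atractylodis (0.28 ± 0.04, adjusted p = 9.1e-05). SLC7A11, the cystine transporter, rose by 0.20, and HMOX1, heme oxygenase 1, fell by 0.25. Of 8 tested aryl hydrocarbon receptor genes 2 rose and 2 fell, with CYP1B1, a cytochrome P450, higher by 0.32 (adjusted p = 0.11 after the GC correction). ALDH1A3, a retinoic acid producing dehydrogenase, rose by 0.23. CYP1A1 was near its floor, with 0.758, 1.04 and 0.956 CPM in vehicle, 0.84 CPM with Poria and 1.37 CPM with Atractylodis (0.27 ± 0.24, adjusted p = 0.48), and its sign turned without the Atractylodis library (-0.12).

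Further genes were given by name whatever their result. ARRDC4, an arrestin-like glucose-response gene, fell by 0.31 (adjusted p = 0.032). Its adjusted p was 0.11 without vehicle replicate 1, 0.13 without vehicle replicate 2, 0.056 without the Poria library, 0.091 without the Atractylodis library and 0.15 by DESeq2. COL1A1, a fibrillar collagen, fell by 0.17 (adjusted p = 0.01, and 0.06 without vehicle replicate 1 and 0.073 without vehicle replicate 3). TXNIP, the thioredoxin-interacting protein, was at -0.07 (adjusted p = 0.59), HMGCS1, a cholesterol synthesis enzyme, at -0.07 (adjusted p = 0.33, and 0.034 after the GC correction), and MT2A, a metallothionein, at -0.12 (adjusted p = 0.66; 0.03 log2 without the Poria library).

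**Figure D2:**
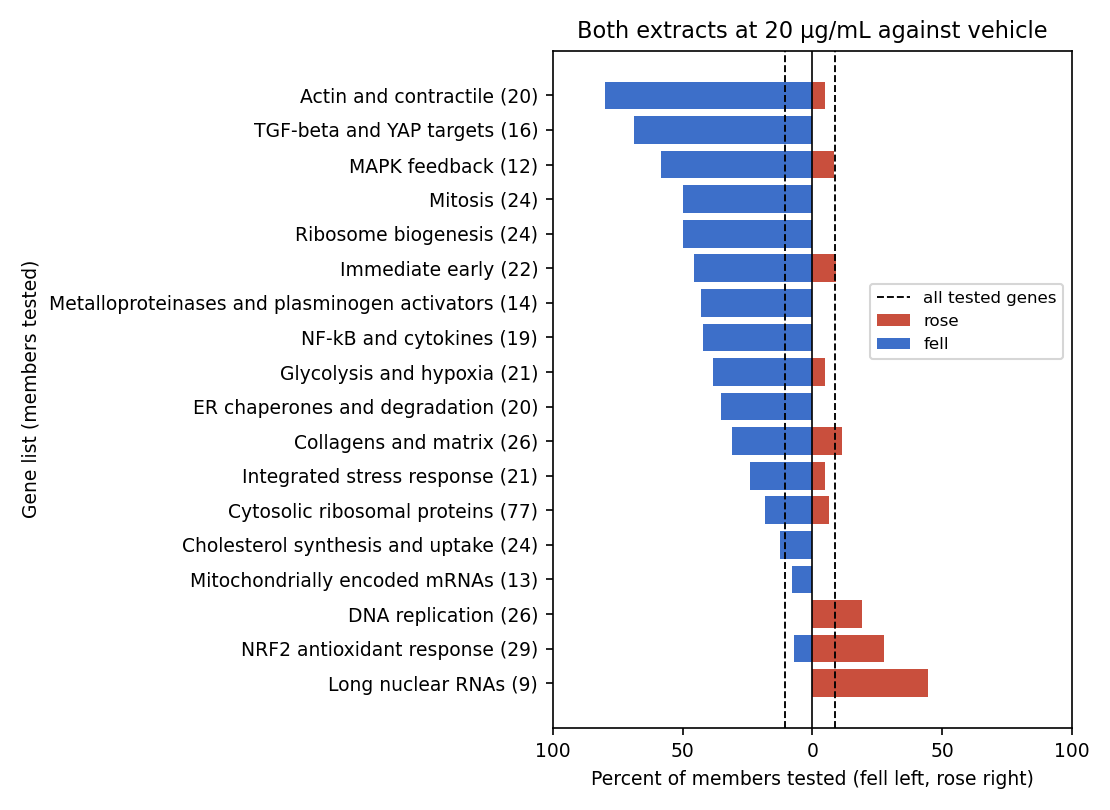
Bars give the percent of tested members of each list that rose (right) or fell (left). The test set the 20 µg/mL libraries as a pooled group against vehicle, so a call need not hold for each extract alone. Dashed lines give the shares over all tested genes (8.70% and 10.4%). Actin, TGF-beta and YAP genes reach furthest to the left and long nuclear RNAs furthest to the right.

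The 100 and 500 µg/mL libraries were used to ask whether the low-dose shift went further. As 1 group they pool both extracts and both doses. Their spread holds the differences between these, which makes a call less likely. Over both extracts, 1 of 17752 genes (0.00563%) was called between the 4 higher-dose libraries and the 2 at 20 µg/mL by edgeR, 0 of them lower, with 1981 at an unadjusted p under 0.05. It was ENSG00000279571, a long intergenic RNA listed at 0 in both 20 µg/mL libraries and at 0.255 to 0.498 CPM in the other 7, a level at which the split of reads between genes is uncertain. DESeq2 called 56, and edgeR called 25 without the Poria library at 20 µg/mL. With extract as a term in the model, a fit added after the values were seen, 1 gene was again called, with 2432 at an unadjusted p under 0.05. Within each extract, in tests added after the values were seen, 1046 genes (5.89%) were called between Poria at 500 and at 20 µg/mL and 1710 (9.63%) between Atractylodis at 500 and at 20 µg/mL. Each of these compares 1 library with 1 library, so their spread is taken from the vehicle libraries, and the counts were 2132 and 2886 without vehicle replicate 2.

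Among the Poria doses, LIF and PTGS2 were lowest at 20 µg/mL and nearer to vehicle at higher doses, while CCL2 stayed at 22.9, 21.8 and 22.3 CPM. LIF stood at 31.1, 39.1 and 53.4 CPM at 20, 100 and 500 µg/mL, and was higher by 0.78 ± 0.07 at 500 than at 20 µg/mL (adjusted p = 5.9e-09). PTGS2 stood at 53.7, 68.9 and 83.0 CPM (0.63 ± 0.05, adjusted p = 7.5e-09). The median of the NF-kB list went from -0.27 to -0.04 and -0.02 log2 against vehicle. With Atractylodis, LIF had 33.2, 29.6 and 37.6 CPM and PTGS2 51.8, 55.7 and 55.4 CPM, all below the vehicle libraries. ANGPTL4 differed by extract, with 14.1, 13.8 and 12.6 CPM for Poria, and 13.4, 13.5 and 27.1 CPM for Atractylodis, a rise of 1.02 ± 0.08 from 20 to 500 µg/mL (adjusted p = 2.4e-09).

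Other genes went past their low-dose level or changed sides. NQO1 rose further to 247 CPM with Poria at 500 µg/mL and 237 CPM with Atractylodis. HMOX1, which had fallen at 20 µg/mL, went to 105 CPM and 202 CPM, above the vehicle mean of 86.8 CPM (1.39 ± 0.05 for Atractylodis at 500 over 20 µg/mL, adjusted p = 1.7e-17). HERPUD1 fell further with Poria, to 61.1 CPM (-0.66 ± 0.05, adjusted p = 1.5e-09), and rose with Atractylodis, to 109 CPM (0.28 ± 0.05, adjusted p = 0.0006). HSPA5, not called at 20 µg/mL, fell to 2490 CPM at 500 µg/mL of Poria (-0.54 ± 0.05 over the low dose, adjusted p = 6.4e-08). NEAT1 fell back to 396 CPM with Poria (-0.49 ± 0.05, adjusted p = 5.2e-08), still above all 3 vehicle libraries. With Atractylodis it went the other way, from 572 CPM to 650 CPM (0.19 ± 0.05, adjusted p = 0.011, and 0.21 after the GC correction). CCN2 had 121, 120 and 120 CPM for Poria and 105, 108 and 100 CPM for Atractylodis, and was not called between 500 and 20 µg/mL in either. The median of the whole TGF-beta and YAP list was lower at each higher dose, at -0.285, -0.299 and -0.358 log2 against vehicle for Poria and -0.257, -0.322 and -0.538 for Atractylodis.

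**Figure D3:**
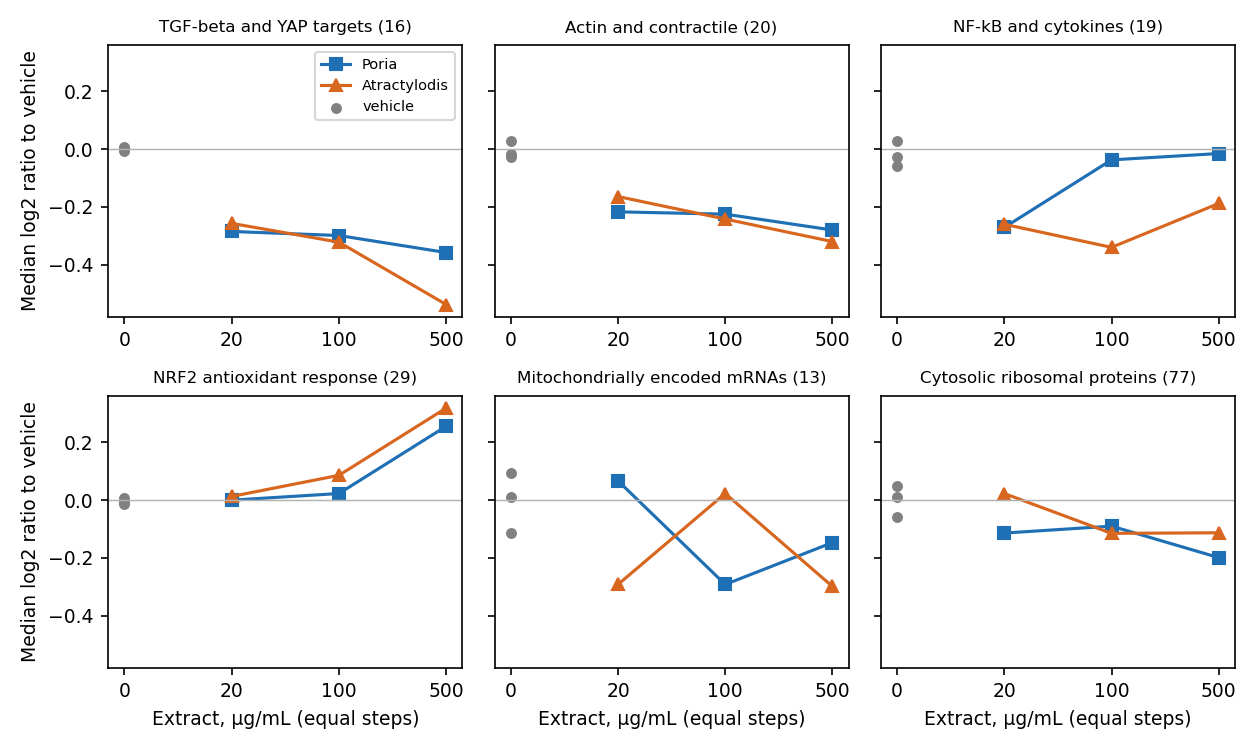
Each panel gives the median log2 ratio to vehicle of a gene list by extract dose (dose axis in equal steps), with 1 library per treated point and 3 for vehicle, each vehicle library against the other 2. The TGF-beta and YAP median is already -0.29 and -0.26 at 20 µg/mL, while the NF-kB median of Poria returns to -0.02 at 500 µg/mL.

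The low-dose libraries were also compared with each other, 1 library against 1. Between Poria and Atractylodis at 20 µg/mL, 236 of 17203 genes were called (1.37%), with 89 higher in Poria (0.517%) and 147 higher in Atractylodis (0.855%). The median size of the difference over all tested genes was 0.10 log2. The count was 424 without vehicle replicate 1 and 721 without vehicle replicate 2. In this fit the spread of both low-dose libraries is taken from vehicle. Of the 236 genes, 30 (12.7%) were also called for both extracts against vehicle, beside 19.1% of all tested genes. The spread of the low-dose group holds the difference between the extracts. A large difference therefore makes a call for both extracts less likely, and the overlap does not show separate sets of genes. The Atractylodis library was the highest or lowest of all 9 libraries for 160 of the 236 genes (67.8%) and the Poria library for 48 (20.3%), beside 21.6% and 12.4% over all tested genes. Across genes, the Poria minus Atractylodis difference had a Spearman rho of -0.429 with GC, and with the GC correction 102 genes were higher in Poria and 80 in Atractylodis, 122 of them among the 236.

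Among called genes with a name that average 2 or more in log2 CPM, the largest difference was that of C4orf48 (ENSG00000243449, chromosome 4, 2041993 to 2043970, plus strand), which encodes a neuropeptide-like protein. It stood at 18.6, 19.0 and 19.0 CPM in vehicle, 16.0 CPM with Poria and 4.22 CPM with Atractylodis. The other 8 libraries ranged from 11.1 to 19.0 CPM, so the Atractylodis library at 20 µg/mL stood alone. The difference was 1.92 ± 0.11 (3.79-fold, adjusted p = 3.9e-12). NDUFAF8 (ENSG00000224877, chromosome 17, 81239239 to 81241281, plus strand), an assembly factor of complex I, had 26.0, 27.3 and 25.3 CPM in vehicle, 30.8 CPM with Poria and 17.4 CPM with Atractylodis. Its difference was 0.83 ± 0.08 (adjusted p = 7.4e-08), and at 500 µg/mL of Atractylodis it was back at 28.6 CPM. BTG1, an antiproliferative gene, had 44.8, 44.0 and 44.0 CPM in vehicle, 48.5 CPM with Poria and 37.1 CPM with Atractylodis (0.39 ± 0.06, adjusted p = 0.00041). SMIM11 (15.6 against 8.10 CPM, with 5.42 to 6.35 CPM in vehicle) was above vehicle in both, but it has a near-identical copy and is uncertain.

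Several of the largest differences fell on genes whose reads are shared. TMED7-TICAM2, a read-through gene, was higher in Poria by 0.70 and TICAM2, which lies within it, was higher in Atractylodis by 0.59, and how their shared reads were divided was not tested. CFAP298-TCP10L, FAM47E-STBD1 and BIVM-ERCC5 (higher in Poria) and BCL2L2-PABPN1 (higher in Atractylodis) are also read-through genes. RN7SL1 and RN7SL2, paralogous signal recognition particle RNAs, were higher in Poria, RN7SL2 with adjusted p = 0.072 without vehicle replicate 3. CYP1B1 was higher in Atractylodis by 0.21 (adjusted p = 0.028), as was MT1X, a metallothionein with close paralogs, by 0.39 (adjusted p = 0.016). CCN2 was lower in Atractylodis by 0.21 (adjusted p = 0.028), a call that DESeq2 did not make. NEAT1 (-0.04 ± 0.05, adjusted p = 0.75) and LIF (-0.09 ± 0.07, adjusted p = 0.61) were not called.

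**Figure D4:**
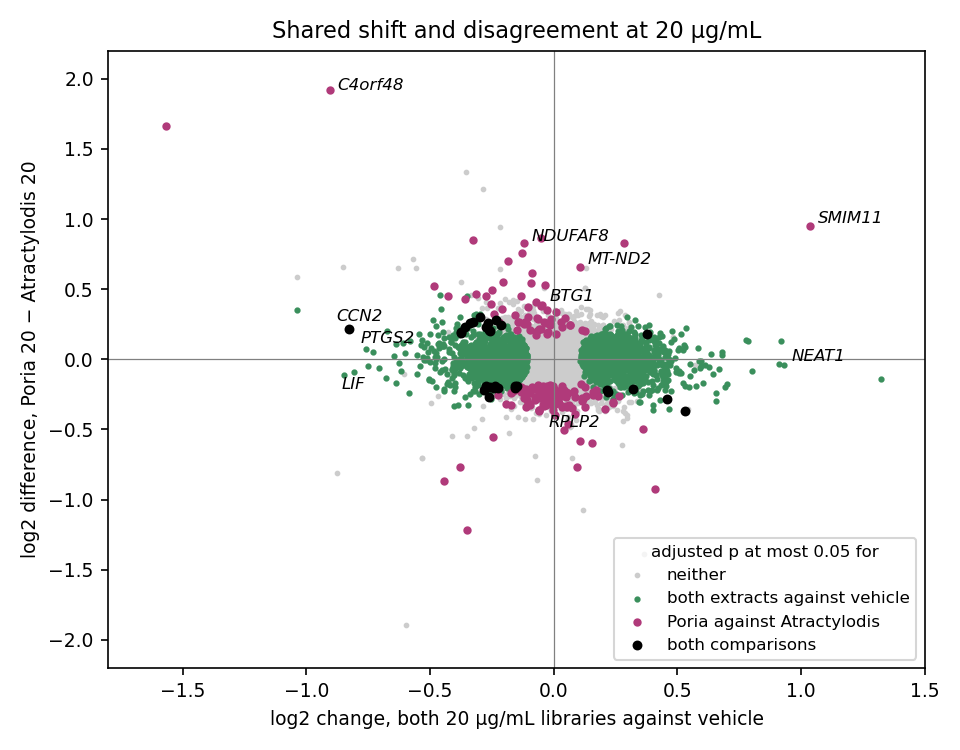
Each point is a gene that averages 2 or more in log2 CPM (11547 drawn, 1 outside the axes), with the change of both low-dose libraries against vehicle across and the Poria minus Atractylodis difference upwards. C4orf48 (1.92) and NDUFAF8 (0.83) differ between the libraries without a call for the shared shift, which a large difference makes less likely. NEAT1 and LIF shift with little difference.

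Mitochondrially encoded mRNAs, which encode subunits of the respiratory chain, were higher in Poria. All 13 tested members were higher in Poria than in Atractylodis, 7 of them called and 0 called the other way, with a median difference of 0.39. MT-ND2, a complex I subunit, had 3490, 3080 and 3310 CPM in vehicle, 4330 CPM with Poria and 2750 CPM with Atractylodis (0.66 ± 0.07, adjusted p = 0.00019, and 0.28 after the GC correction). The libraries thus lay on opposite sides of vehicle. MT-ND4L had 933, 940 and 921 CPM in vehicle, 885 CPM with Poria and 676 CPM with Atractylodis (0.39 ± 0.05, adjusted p = 4.2e-06). Mitochondrial transcripts made up 6.971% of counts with Poria and 5.622% with Atractylodis, against 5.927% to 6.46% in vehicle. The called members were 3 after the GC correction and 12 without vehicle replicate 1. Against vehicle, the list median stood at 0.07, -0.29 and -0.15 for Poria at 20, 100 and 500 µg/mL and at -0.29, 0.02 and -0.30 for Atractylodis, so it did not follow dose in either extract.

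Cytosolic ribosomal protein genes went the other way. Of 77 tested, 18 were higher in Atractylodis and 0 in Poria, with a median difference of -0.11. RPLP2, a stalk protein of the large subunit, had 293, 305 and 289 CPM in vehicle, 247 CPM with Poria and 319 CPM with Atractylodis (-0.37 ± 0.05, adjusted p = 2.1e-05), and RPL36 had 240, 253 and 234 CPM in vehicle, 219 CPM with Poria and 277 CPM with Atractylodis (-0.34 ± 0.05, adjusted p = 0.00026). Many of these genes have processed pseudogenes, so their counts are uncertain. The count was 12 after the GC correction, 30 without vehicle replicate 1 and 33 without vehicle replicate 2. Against vehicle, 14 fell and 5 rose in both libraries together, and 36 fell without the Atractylodis library.

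**Figure D5:**
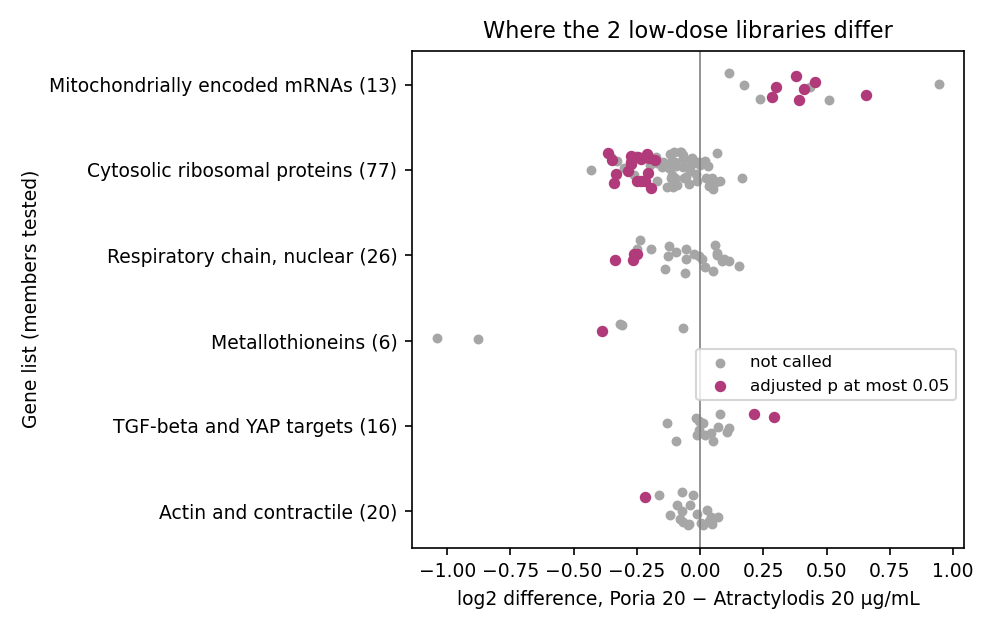
Each point is a tested member of a list, placed by its log2 difference between Poria and Atractylodis at 20 µg/mL and coloured where its adjusted p was at most 0.05. All 13 mitochondrially encoded mRNAs lie to the right of 0, 18 ribosomal protein genes are called to the left, and of the actin genes 1 (TMSB10) is called, to the left.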

How the data were processed

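RNA was made into directional libraries and sequenced as paired reads of 100 bases, per the labels' protocols. Per the submitters' processing notes the tools were FastQC 0.11.9, Trim Galore 0.6.5, STAR 2.7.3a and RSEM 1.3.3 with build hg38, with the annotation release not given in the sources used here. Deposited by the authors were RSEM expected counts per gene, and these were rounded to whole numbers. Of 279 columns 9 belong to these samples, and 270 were left unused. A gene name table gave symbols, with GENCODE 29 used where it had none, and GENCODE 29 gave GRCh38 positions. Of 60675 genes 57055 had a symbol. For 15349 of these it was only an Ensembl ID, which left 41706 with a name.

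Tests used edgeR 4.0.16 in R 4.3.3 (TMM, filterByExpr with count minimum 10 and total minimum 15, robust quasi-likelihood, Benjamini-Hochberg threshold 0.05). The shared shift was fitted on 5 libraries in 2 groups (3 residual degrees of freedom), the single libraries in 3 groups (2), higher against low doses on 9 libraries (6), and 500 against 20 µg/mL in 7 groups (2), a test added after the values were seen. SE was taken as the absolute log2 change over the root of F. Fits were tested on simulated data with 200 genes changed. The shared-shift fit recovered 68% of 1.2-fold and 88% of 1.5-fold changes, with 32 false calls, a share of its calls above the 0.05 threshold. The fit between the extracts recovered smaller shares and also made false calls.

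Named genes were the 12 largest rises and falls of both extracts against vehicle and the 10 largest differences each way. Also named were the 6 largest shifts among genes with opposite calls, up to 4 members per list by p, and fixed genes. Rises, falls, differences and opposite calls needed a mean log2 CPM of 2 or more and a name other than an Ensembl ID. TMSB4X, TMSB10, ACTG1, FLNA, CCN1 and ENSG00000279571 fall outside this rule and were chosen after their values were seen. The members and the 45 gene lists were chosen with earlier results of these data known. Alternatives were extract as a term, DESeq2 1.42.0 size factors or its Wald test, no filter, a spline correction (5 degrees of freedom) for GC content and length, other models, a 1.2-fold minimum, and leaving out single libraries. Lists were described by counts and medians only. Some items that the naming rule picks are not reported here.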

Additional observations from a re-analysis of the deposited data

Results flagged for a closer look

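Between the extracts at 20 µg/mL 236 genes differed by the test of the difference itself, with the spread taken from the vehicle libraries.

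The 6 genes given here had the largest shifts among genes called in opposite directions for Poria and for Atractylodis against vehicle. How many genes were so called in all is not given. The genes were picked on shifts from the same fit, so the test of the difference adds no separate support. Poria minus Atractylodis was 0.87 log2 for FAM47E-STBD1, a read-through gene whose reads may belong to its parts. It was 0.83 for NDUFAF8, 0.66 for MT-ND2 and 0.39 for BTG1. IGFBP6, which binds insulin-like growth factors, was higher in Atractylodis, with 74.9, 78.5 and 72.5 CPM in vehicle, 66.7 CPM with Poria and 83.7 CPM with Atractylodis (-0.33). RPL36 had -0.34.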

How the results depend on the processing

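No paired analysis was possible because, in the labels, the treated libraries all carry replicate number 2 and so share fewer than 2 numbers with the vehicle libraries. For higher against low doses the extract could be a term, and the count was then 1, as without it. Against the 3286 genes called for both extracts, 1198 also changed by at least 1.2-fold, DESeq2 called 2142 (688 higher, 1454 lower), and leaving out 1 library gave 1981 to 3736. Against the 236 called between the extracts, 131 differed by at least 1.2-fold, 425 were called with no filter, DESeq2 called 91, and leaving out 1 vehicle library gave 221 to 721. Against vehicle, Poria alone had 3759 calls and Atractylodis alone 3308, and DESeq2 called 1283 and 940. CYP1A1, not called, went from 0.27 to -0.12 without the Atractylodis library and to 0.58 without the Poria library, and MT2A, not called, from -0.12 to -0.29 and 0.03. For higher against low doses there were 163 calls with no filter, 56 by DESeq2, and 0 to 25 without 1 library. For 500 against 20 µg/mL, DESeq2 called 112 (Poria) and 245 (Atractylodis), the GC correction left 1078 for Atractylodis, and leaving out 1 vehicle library gave 1111 to 2132 and 1744 to 2886. The cause of these changes was not tested.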

Other observations

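Further gene groups are given here with their counts, to be read against 8.70% of all tested genes that rose and 10.4% that fell. Of 18 clock genes 4 rose and 6 fell. HLF, a clock-controlled transcription factor, had 5.59, 5.20 and 5.15 CPM in vehicle, 7.17 CPM with Poria and 8.08 CPM with Atractylodis (0.52 ± 0.09, adjusted p = 0.0005), and NR1D1, a repressor of the clock, fell by 0.27 (adjusted p = 0.00014). Without vehicle replicate 1, 2 of the 18 rose. Host genes of small nucleolar RNAs split, with SNHG12 higher by 0.51 (adjusted p = 1.2e-05) and SNHG16 lower by 0.30 (adjusted p = 0.00023), among 3 that rose and 2 that fell of 15. HNRNPL, a splicing regulator, fell by 0.33 (adjusted p = 8.6e-06). Of 20 p53 targets 1 rose and 3 fell, so 20.0% were called, near the 19.1% of all tested genes, and the list median was -0.02. Of 21 glycolysis and hypoxia genes 8 fell and 1 rose, with GAPDH lower by 0.23 (adjusted p = 0.0012), and 5 fell without vehicle replicate 3.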
